A study of Mus musculus with 6 samples.

Results

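Transcripts of 9 genes of glucose uptake, glycolysis and glycogen storage were compared between livers of ErbB4-/- and control mice. The genes were taken as a list that sets liver-type forms, Slc2a2, Pklr, Pfkfb1 and Gys2, against forms that rise in many tumours, Slc2a1, Hk2, Pkm, Pfkfb3 and Ldha. Of the 9 genes, 8 were measured among 22180 genes in all, 3 of the liver type and 5 of the tumour type. Pfkfb1, the liver form of the bifunctional enzyme of glycolytic control, was not analysed here, because no probe set was named for it alone. Each group held 3 mice, with 1 single-colour whole-transcript array per liver. The ErbB4-/- mice lack the receptor tyrosine kinase ErbB4 in every tissue but the heart, where a transgene (HER4heart) expresses it to prevent death before birth, and they had been crossed back to C57BL/6J. The control mice were wild-type C57BL/6J. All 6 mice, controls included, had received 1 dose of DEN on postnatal day 14, an abbreviation that in this field stands for a liver carcinogen, diethylnitrosamine. The protocol gives dissection at 32 weeks for every mouse, but the per-mouse entries give 35, 36 and 37 weeks for ErbB4-/- replicates 1 to 3 and 32, 33 and 34 weeks for control replicates 1 to 3. If these entries hold, age and genotype run together, and their parts cannot be told apart with these 6 arrays. Mice had free access to food, and no source used here states the hour of dissection.

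Glucose enters hepatocytes through GLUT2, the product of Slc2a2, a low-affinity carrier that passes glucose in both directions. Once phosphorylated, it is broken down by glycolysis through liver pyruvate kinase, the product of Pklr, or stored as glycogen by liver glycogen synthase, the product of Gys2. Liver tumours in rodents and humans often shift to the high-affinity carrier GLUT1 (Slc2a1), hexokinase 2 (Hk2), the inducible regulator Pfkfb3, the M-type pyruvate kinase (Pkm) and lactate dehydrogenase A (Ldha), forms that leukocytes, endothelium and proliferating cells also use. Carbohydrate response factors acting through E-box pairs drive Pklr, while hypoxia-inducible factors (HIF) and MYC are well-known activators of the tumour-type genes.

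The sequence just before the transcription start is shown for 4 of the genes, the liver-type Pklr because of its known glucose-responsive element, and Ldha, Pkm and Slc2a1 because their ErbB4-/- minus control differences were the lowest of the tumour-type genes. The windows are the 250 bases upstream of a RefSeq start on build GRCm38.p6, written 5′ to 3′ on the gene's strand, and capitals mark the carbohydrate response element in Pklr and matches to ACGTG, on either strand, in the others. For Pklr the start of the liver transcript is used, and for Pkm and Ldha 1 of the annotated starts, the one whose window held ACGTG. In both genes the window of the other annotated start held 0 matches to ACGTG.
Pklr (chr3:89136373-89136622, + strand): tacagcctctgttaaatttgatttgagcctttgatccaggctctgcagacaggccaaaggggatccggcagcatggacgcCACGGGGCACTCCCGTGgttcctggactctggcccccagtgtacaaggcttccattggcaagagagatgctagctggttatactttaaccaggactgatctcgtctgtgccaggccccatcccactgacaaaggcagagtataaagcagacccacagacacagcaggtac
Ldha (chr7:46845554-46845803, + strand): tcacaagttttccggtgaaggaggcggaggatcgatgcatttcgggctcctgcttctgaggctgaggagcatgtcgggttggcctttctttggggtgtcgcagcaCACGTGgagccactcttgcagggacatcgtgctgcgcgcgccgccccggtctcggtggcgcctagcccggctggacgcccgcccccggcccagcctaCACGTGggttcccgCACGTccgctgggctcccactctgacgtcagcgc
Slc2a1 (chr4:119108495-119108744, + strand): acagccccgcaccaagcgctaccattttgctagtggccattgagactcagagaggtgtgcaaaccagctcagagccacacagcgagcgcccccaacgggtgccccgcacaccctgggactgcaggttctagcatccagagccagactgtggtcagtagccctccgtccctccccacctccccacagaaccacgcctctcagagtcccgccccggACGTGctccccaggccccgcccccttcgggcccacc
Pkm (chr9:59656977-59657226, + strand): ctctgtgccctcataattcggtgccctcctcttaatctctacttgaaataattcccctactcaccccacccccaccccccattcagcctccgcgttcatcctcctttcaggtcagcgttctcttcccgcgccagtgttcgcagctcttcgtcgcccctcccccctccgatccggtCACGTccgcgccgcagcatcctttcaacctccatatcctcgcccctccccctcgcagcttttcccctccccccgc

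The carbohydrate response element, searched as a pair of E-box-like motifs at fixed spacing on either strand and known in rat Pklr as the site of glucose control, begins in mouse Pklr 170 bases before the start, and 13 of 32851 RefSeq windows of the same length hold such a match (0.0396%). The Ldha window shown holds 5 matches to ACGTG, which include both strands of 2 palindromic CACGTG E-boxes, beginning 145, 144, 48, 47 and 34 bases before the start. The windows shown for Slc2a1 and Pkm hold 1 match each, 36 and 75 bases before the start. ACGTG, 1 form of the HIF core, occurs in 16.6% of all windows and CACGTG in 6.02%, and the other form, GCGTG, in 28.2%. Of the 9 genes, 8 had windows, 15 in all. Of the 15, 6 held ACGTG, in 5 genes, 4 held GCGTG, in 4 genes, and 2 held CACGTG, in 2 genes. A match of letters describes the window only and does not show that a factor binds there.

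Values as deposited are log2 signals, 1 per probe set and array, and differences are given as ErbB4-/- minus control. The median array value lay between 4.83 and 4.86, and arrays correlated at 0.975 to 0.986 across probe sets. No background signal was used, so low values can be background. All 8 measured genes lay at or above the median gene level of 5.27, which is not a limit of detection. In 57.5% of genes at least 2 arrays held an identical value. Hepatocyte markers were high on all arrays, with Alb at 14.31 to 14.33 in ErbB4-/- and 14.33 to 14.37 in control liver. The first principal component, with 36.1% of the variance, put ErbB4-/- replicate 3 at 33.4, the other ErbB4-/- arrays at 3.46 and 5.44 and the controls between -21.5 and -6.96. Control replicate 1 stood apart in sex-biased hepatocyte genes, with the steroid dehydrogenase Hsd3b5 at 2.52 there, against 9.33 to 9.83 in the other controls and 8.70 to 9.88 in ErbB4-/- liver. Cyp4a12a was low there too, at 4.09, against 8.43 to 9.50 on the other arrays. Cyp2b9 and Cyp2b13 were high there, at 12.59 and 10.91, against 7.84 to 8.46 and 5.89 to 6.46 on the other arrays. Differences with single arrays left out are given beside the results they moved most. Precision is limited by the number of arrays, and over all genes the standard error of the group difference had a median of 0.10.

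None of the 8 measured genes passed the test between ErbB4-/- and control liver (limma, adjusted p between 0.760 and 0.973 over 22180 genes). Across all genes 1 passed (0.00451%). At an unadjusted p under 0.05 there were 0 of the 8, against a background of 5.72% of all genes. Directions were even, with 4 genes higher and 4 lower on average in ErbB4-/- liver, and the median difference of the 8 was -0.07, against 0.01 over all genes. The lower ones were Ldha, Pkm, Pklr and Slc2a1, and the higher ones Gys2, Slc2a2, Pfkfb3 and Hk2, so that neither class lay on 1 side. The groups did not overlap for 1 of the 8, Ldha, against a background of 8.33% of all genes without overlap, 4.52% with ErbB4-/- higher and 3.81% with ErbB4-/- lower. A p above the threshold does not show equal expression, and the 95% intervals below give the differences that these arrays leave room for.

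**Figure D1:**
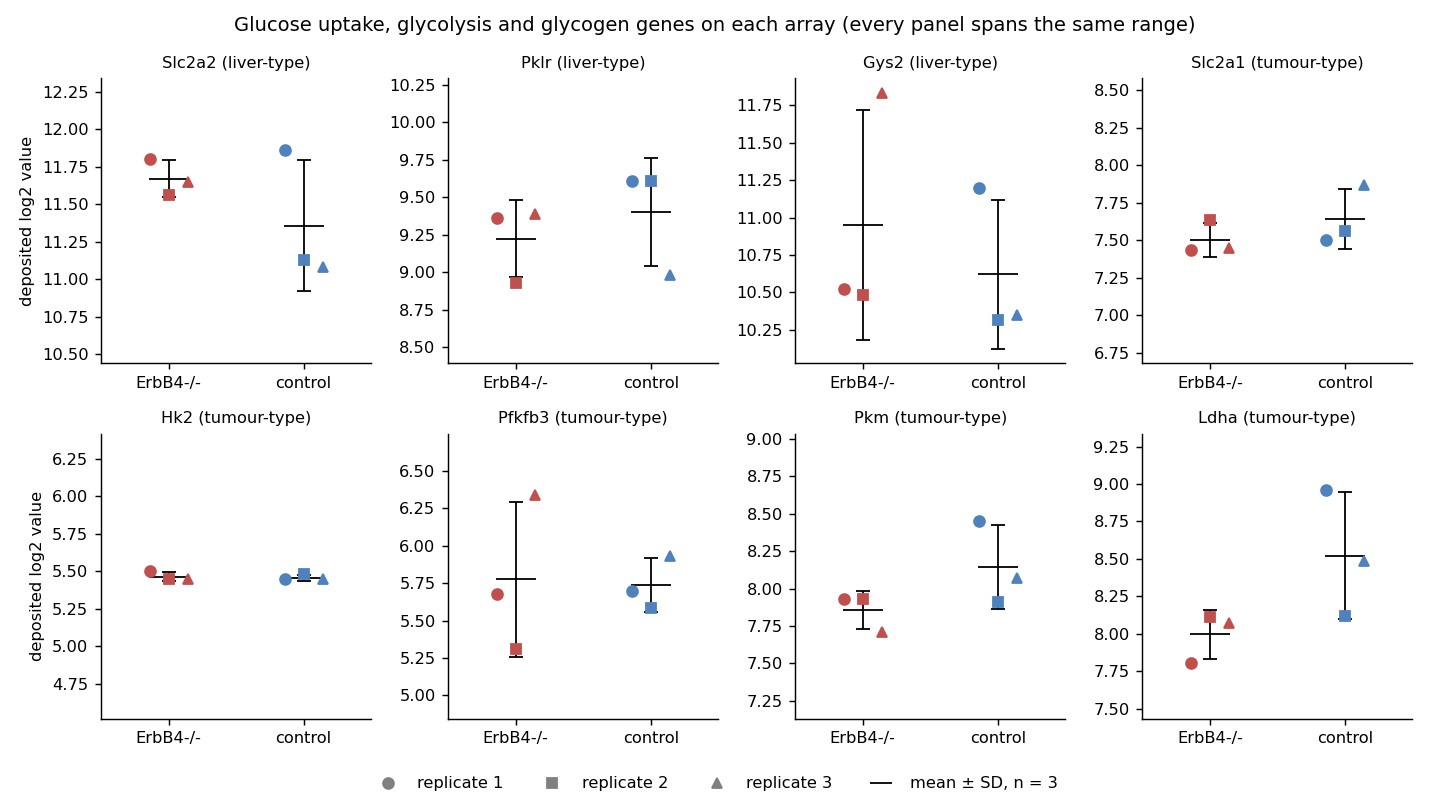
Deposited log2 value of each measured gene on the 3 ErbB4-/- arrays (left of each panel) and the 3 control arrays (right), with the mean and SD; marker shapes give the replicate number and every panel spans the same number of log2 units. The groups overlap in all panels but that of Ldha, where the highest ErbB4-/- value, 8.11, lies just under the lowest control value, 8.12.

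Glucose carriers were measured in both forms. Slc2a2, the hepatocyte carrier, measured 11.80, 11.56 and 11.65 in ErbB4-/- replicates 1 to 3, against 11.86, 11.13 and 11.08 in control replicates 1 to 3. The ErbB4-/- arrays lay together, above 2 of the controls but below control replicate 1. The difference was 0.32 (standard error 0.22) with a 95% interval from -0.24 to 0.87 (limma, adjusted p = 0.760). Without control replicate 1, the array that also stood apart in sex-biased genes, the difference was 0.57 (limma, adjusted p = 0.813). It was smaller without either other control, 0.20 without replicate 2 and 0.18 without replicate 3. Slc2a1, the carrier of endothelium and many tumours, measured 7.43, 7.64 and 7.45 in ErbB4-/- liver, against 7.50, 7.56 and 7.87 in control liver. The groups overlapped, with the highest value in control replicate 3 and the next in ErbB4-/- replicate 2. Its difference was -0.14 (standard error 0.12) with an interval from -0.43 to 0.16 (limma, adjusted p = 0.776), and it ranged from -0.21 without control replicate 1 to -0.02 without control replicate 3. A second probe set named for Slc2a1, with lower values of 4.37 to 4.59 in ErbB4-/- and 4.28 to 4.41 in control liver, pointed the other way, with a difference of 0.09 (standard error 0.09).

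Hk2, which phosphorylates glucose in muscle and in many tumours, showed almost no spread. It measured 5.50, 5.45 and 5.45 in ErbB4-/- liver, against 5.45, 5.48 and 5.45 in control liver, with an identical value on 4 of the 6 arrays. The difference was 0.01 with an interval from -0.11 to 0.12 (limma, adjusted p = 0.970), the narrowest of the 8 genes. Whether so constant a value is background signal was not tested.

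Pfkfb3 makes the sugar bisphosphate that activates phosphofructokinase, the committed step of glycolysis. It measured 5.68, 5.31 and 6.34 in ErbB4-/- liver, against 5.70, 5.58 and 5.93 in control liver. Both the lowest and the highest of the 6 values were ErbB4-/- arrays, with control values between them. The difference was 0.04 (standard error 0.27) with an interval from -0.63 to 0.71 (limma, adjusted p = 0.973), and it ranged from -0.24 without ErbB4-/- replicate 3 to 0.27 without ErbB4-/- replicate 2.

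Pyruvate kinase makes pyruvate at the end of glycolysis. Pklr, its liver form, whose upstream window holds the E-box pair shown above, measured 9.36, 8.93 and 9.39 in ErbB4-/- liver, against 9.61, 9.61 and 8.98 in control liver. The groups overlapped, since control replicate 3 lay with the lowest ErbB4-/- array. The difference was -0.18 (standard error 0.22) with an interval from -0.72 to 0.37 (limma, adjusted p = 0.819), and it ranged from -0.38 without control replicate 3 to -0.03 without ErbB4-/- replicate 2, with -0.07 without either of the other controls. Pkm, the form of most other tissues and of many tumours, measured 7.93, 7.93 and 7.71 in ErbB4-/- liver, against 8.45, 7.91 and 8.07 in control liver. The 2 highest values were controls, but control replicate 2 lay below the first 2 ErbB4-/- arrays. The difference was -0.28 (standard error 0.15) with an interval from -0.67 to 0.10 (limma, adjusted p = 0.760). It was -0.13 without control replicate 1 and -0.06 without this array and ErbB4-/- replicate 3. The single value per array does not separate the splice forms PKM1 and PKM2.

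Ldha, which converts pyruvate to lactate, had the largest difference of the 8 genes by absolute size. It measured 7.81, 8.11 and 8.07 in ErbB4-/- liver, against 8.96, 8.12 and 8.49 in control liver. All ErbB4-/- values lay below all control values, ErbB4-/- replicate 2 only just below control replicate 2. The means were 7.996 ± 0.165 in ErbB4-/- and 8.522 ± 0.423 in control liver (SD, n = 3 each), so that ErbB4-/- liver had 0.695 of the control level. The difference was -0.53 (standard error 0.23) with an interval from -1.09 to 0.03 (limma, unadjusted p = 0.0612, adjusted p = 0.760). Leaving out control replicate 1, its highest array, made it -0.31, and leaving out control replicate 2 made it -0.73. Without control replicate 1 and ErbB4-/- replicate 3 it was -0.34. Pseudogenes and close relatives of Ldha exist in mice, and how far the probe set reads them was not examined.

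Gys2, which builds glycogen in hepatocytes, varied most. It measured 10.52, 10.49 and 11.83 in ErbB4-/- liver, against 11.20, 10.32 and 10.35 in control liver. In each group 1 array lay well above the others, ErbB4-/- replicate 3, which stood apart on the first component, and control replicate 1, which stood apart in sex-biased genes. The difference was 0.33 (standard error 0.45) with an interval from -0.79 to 1.44 (limma, adjusted p = 0.834). It turned to -0.12 without ErbB4-/- replicate 3, was 0.61 without control replicate 1, and was 0.17 without both. Leaving out either other ErbB4-/- array gave 0.54 and 0.56, and either other control 0.18 and 0.19.

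**Figure D2:**
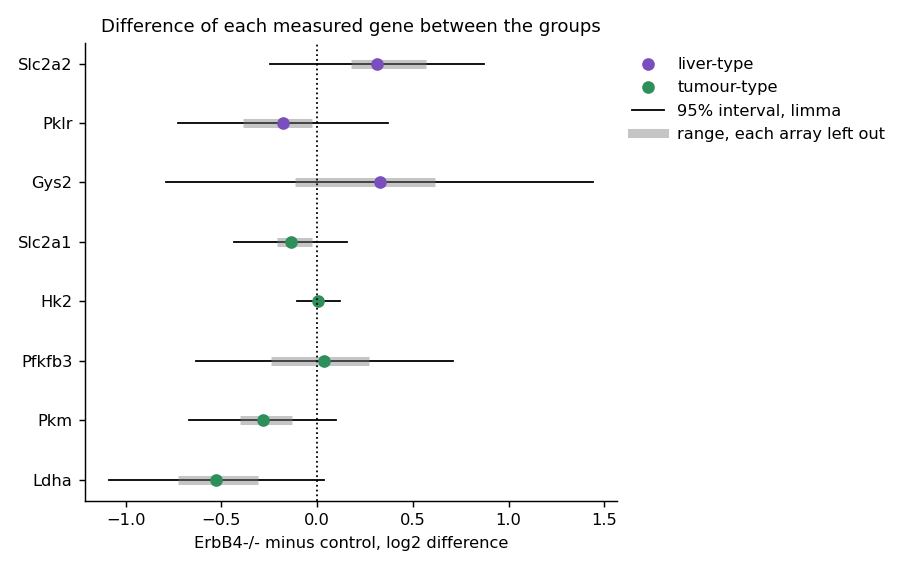
Log2 difference, ErbB4-/- minus control, of each measured gene (points, coloured by liver type or tumour type) with the 95% interval from limma (thin lines) and the range of the difference when each array is left out in turn (grey bars). Every interval spans 0, and the grey bars of Gys2, Hk2 and Pfkfb3 reach both sides of it, that of Hk2 hidden by its point.

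Liver-type and tumour-type forms were next compared within arrays, to ask whether their balance differed between the groups. Levels of different probe sets are not comparable, so only the shift of their log2 difference between groups is read. The carriers and the pyruvate kinases gave 2 pairs, and Pfkfb3 had no partner because Pfkfb1 was not analysed. Slc2a2 minus Slc2a1 measured 4.37, 3.93 and 4.21 in ErbB4-/- replicates 1 to 3, against 4.36, 3.57 and 3.21 in control replicates 1 to 3. The ErbB4-/- arrays lay above 2 controls, and control replicate 1 lay among them. The means were 4.17 ± 0.22 in ErbB4-/- and 3.71 ± 0.59 in control liver (SD, n = 3 each), a shift of 0.45 toward the liver form with 0.36 as its standard error. The exact permutation test, two-sided, gave p = 0.3, and p = 0.6 adjusted over the 2 pairs. Without control replicate 1 the shift was 0.78 (exact permutation p = 0.1), while without control replicate 3 it was 0.20 (exact permutation p = 0.6). Pklr minus Pkm measured 1.43, 0.99 and 1.67 in ErbB4-/- liver, against 1.16, 1.70 and 0.91 in control liver. The groups covered nearly the same range, and the shift was 0.11 with 0.31 as its standard error. The same exact permutation test gave p = 0.8, both raw and adjusted. The shift turned to -0.05 without ErbB4-/- replicate 3 and to -0.06 without control replicate 3. It was 0.06 without control replicate 1, 0.33 without control replicate 2 and 0.29 without ErbB4-/- replicate 2. The smallest p such a test can give is 0.1, both with 3 arrays a group and with 1 array left out.

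**Figure D3:**
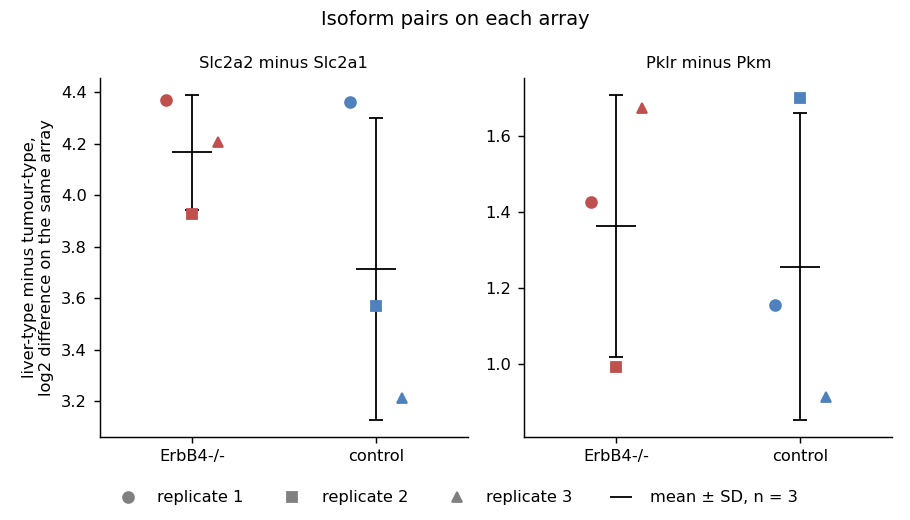
Difference in log2 value between the liver-type and the tumour-type gene on the same array, for Slc2a2 and Slc2a1 (left panel) and Pklr and Pkm (right panel), on ErbB4-/- arrays (left) and control arrays (right) with mean and SD. For the glucose carriers 2 of the control arrays, at 3.57 and 3.21, lie below all ErbB4-/- arrays, and for the pyruvate kinases the groups overlap.

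Markers of myeloid cells, which express Ldha, Pkm and Slc2a1, were compared between the groups in the same way. All 11 neutrophil markers measured, such as S100a9 and Ly6g, were lower on average in ErbB4-/- liver, and the mean over the list was 4.65 to 4.99 in ErbB4-/- and 5.32 to 7.27 in control arrays. Their summed signal was 8.43 to 8.75 in ErbB4-/- and 9.07 to 11.30 in control arrays as log2. All 12 Kupffer cell and macrophage markers were lower too, with a summed signal of 11.28 to 11.98 in ErbB4-/- and 12.30 to 12.70 in control arrays. None of these markers passed the test (limma, adjusted p = 0.760 each), and 9 of the 11 and 10 of the 12 had an unadjusted p under 0.05, all lower, against 2.94% of all genes called lower that way. Among the controls the order of Ldha and of Pkm, replicate 1 above 3 above 2, was also that of the mean neutrophil marker, while the mean macrophage marker was highest in control replicate 3. Slc2a1 ran in another order there, replicate 3 above 2 above 1. Among ErbB4-/- arrays Pkm was lowest in replicate 3, where the mean neutrophil marker was highest. The mean macrophage marker was lowest there, at 7.25, against 8.12 and 7.81 in ErbB4-/- replicates 1 and 2. Ldha was lowest in ErbB4-/- replicate 1, where the mean neutrophil marker was lowest and the mean macrophage marker highest. Endothelial markers, 10 of 10 lower, had a summed signal of 10.52 to 11.96 in ErbB4-/- and 11.85 to 12.34 in control arrays. With week as a covariate 4 of them were higher and 6 lower, and their median difference was -0.11, against -0.81 without it. With this covariate all 11 neutrophil markers stayed lower, with a median difference of -1.68, against -2.03 without it. Of the 12 Kupffer cell and macrophage markers, 10 were lower and 2 higher with it, and the median was -0.54, against -0.75. The week entries rise with replicate number in each group, and no week is shared by the groups. A fit with week therefore rests on extrapolation and does not separate age from genotype for any of these lists. The log2 scale has no 0, and the lowest single neutrophil marker value was 2.90 in ErbB4-/- and 3.27 in control liver. The part of these cells in the values of Ldha and Pkm was not tested, and in whole tissue fewer cells of a type cannot be told apart from less RNA per cell. Cell cycle markers had a summed signal of 7.40 to 7.50 in ErbB4-/- and 7.45 to 7.62 in control arrays. Liver tumour markers had 8.41 on ErbB4-/- replicate 1 alone, 7.82 and 7.78 on ErbB4-/- replicates 2 and 3, and 7.76 to 7.81 in control arrays.

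**Figure D4:**
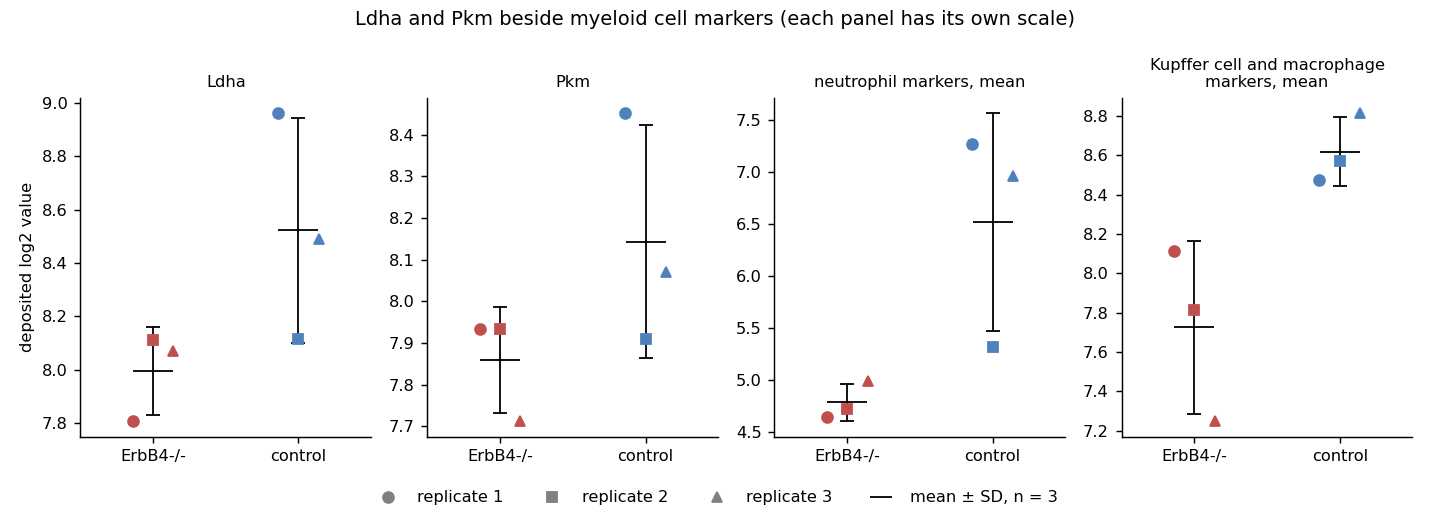
Log2 values of Ldha and Pkm and the mean log2 value of 11 neutrophil and 12 Kupffer cell and macrophage markers on each ErbB4-/- array (left of each panel) and control array (right), with mean and SD over 3 arrays; each panel has its own scale. Control replicate 1 is the highest array for Ldha, Pkm and the neutrophil mean, and control replicate 2 the lowest control array for all 3.

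The other genes of glucose transport, glycolysis, pyruvate entry into mitochondria and glycogen were taken as 4 lists, of whose 71 genes 62 were measured. None passed in either direction (limma, adjusted p between 0.760 and 1). At an unadjusted p under 0.05, 4 were higher and 5 lower in ErbB4-/- liver, beside 2.77% of all genes higher and 2.94% lower, and the median difference was -0.02, against 0.01 over all genes. Groups did not overlap for 4 higher and 4 lower of the 62, beside 4.52% of all genes higher and 3.81% lower. The genes with the smallest p of each list are named below, and lack of overlap in them follows largely from that choice. Aldoa, Gpi1 and Eno1, which encode glycolytic enzymes, had no probe set named for them alone and were not analysed here.

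Carriers of sugars and lactate held the widest differences among these lists, although 0 of the 10 passed. Slc2a5, the fructose carrier, measured 6.52, 6.34 and 6.78 in ErbB4-/- liver, against 6.23, 5.93 and 6.07 in control liver. All its ErbB4-/- values lay above the controls, with a difference of 0.47 and a standard error of 0.14. Slc2a3, a high-affinity glucose carrier of neurons and leukocytes, measured 3.99, 3.90 and 4.36 in ErbB4-/- liver, against 4.78, 4.36 and 4.73 in control liver, a difference of -0.54. Slc16a3, which exports lactate from glycolytic cells, measured 4.73, 4.63 and 4.72 in ErbB4-/- liver, against 5.09, 4.84 and 5.25 in control liver, a difference of -0.37 without overlap. Values of Slc2a3 and Slc16a3 lay below the median gene level, and the part of background in them was not tested. The other 7 carriers differed by -0.33 (Slc16a7) to 0.15 (Slc2a8).

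Glycolytic enzymes lay close to 0, with 0 of 20 passing and differences from -0.29 for Khk, the fructose kinase, to 0.22. The 3 with the smallest p were Pfkm, the muscle-type phosphofructokinase, with 5.42 ± 0.08 in ErbB4-/- and 5.59 ± 0.06 in control liver, Ldhb, the lactate dehydrogenase of oxidative tissues, with 4.76 ± 0.08 in ErbB4-/- and 4.54 ± 0.14 in control liver, and Hk3, the hexokinase of myeloid cells, with 5.46 ± 0.10 in ErbB4-/- and 5.63 ± 0.10 in control liver (SD, n = 3 each). Their differences were -0.17, 0.22 and -0.18, each without overlap between the groups and each with an adjusted p of 0.760 (limma). Gapdh measured 12.63 ± 0.17 in ErbB4-/- and 12.65 ± 0.04 in control liver.

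Entry of pyruvate into mitochondria was represented by 11 genes, of which 0 passed. Pdk2, a kinase that switches off pyruvate dehydrogenase, measured 8.45, 8.61 and 8.52 in ErbB4-/- liver, against 8.28, 8.27 and 8.41 in control liver. The groups did not overlap, and the difference was 0.21 (limma, standard error 0.07, adjusted p = 0.760). Pdk3 and Pdp1, a kinase and a phosphatase of the same complex, differed by -0.09 and -0.12, with overlap.

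Among 21 other glycogen genes 0 passed, and 14 were lower and 7 higher on average in ErbB4-/- liver. Gyg, which encodes glycogenin, the protein primer of the glycogen particle, measured 6.60, 6.41 and 6.32 in ErbB4-/- liver, against 6.85, 6.68 and 6.74 in control liver. Its groups did not overlap, with a difference of -0.31 and a standard error of 0.09 (limma, adjusted p = 0.760). Epm2a, which encodes the glycogen phosphatase laforin, differed by 0.37 without overlap, and Pgm2, of the phosphoglucomutase family, by -0.37 with 1 value shared by both groups (adjusted p = 0.760 each). Gys1, the synthase of muscle and other tissues, measured 5.46 to 5.53 in ErbB4-/- and 5.53 to 5.62 in control liver.

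**Figure D5:**
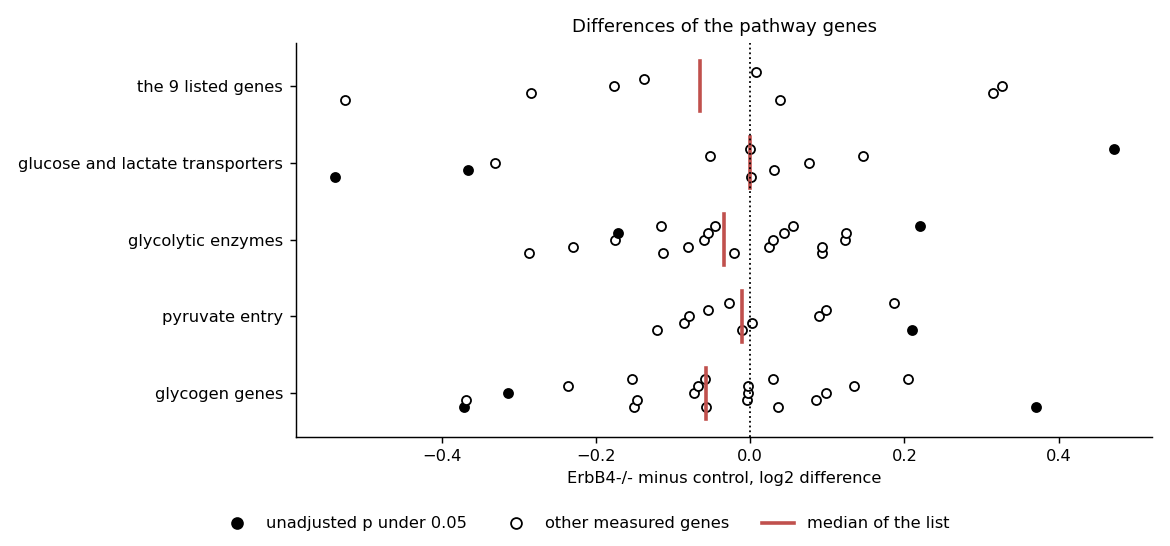
Log2 difference, ErbB4-/- minus control, of every measured gene of the 9 listed genes and of 4 further pathway lists (rows); filled points have an unadjusted p under 0.05 in limma, open points do not, and red lines mark list medians. Filled points are 0 of 8 in the top row and 9 of 62 in the other rows, and the list medians run from -0.07 to 0.00022.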

How the data were processed

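Liver RNA of 6 mice was hybridised after biotin labelling (Affymetrix kits), per the labels' protocols. The authors deposited processed values, taken as log2 from their range. Background correction, normalization and summarisation are not given in the sources used here. Of 41345 probe sets, 23521 had 1 gene symbol in the platform annotation, and the one with the highest mean stood for a gene, which left 22180 genes. Dim probe sets were kept. The group difference was tested two-sided in R 4.3.3 by limma 3.58.1 (lmFit, eBayes), with Benjamini-Hochberg adjustment over all genes at 0.05. The fit was tested on simulated data. Isoform pairs were compared by exact permutation over arrays. The genes named are the 9 listed ones and the 3 of each pathway list with the smallest p, and all further genes were picked with their values in view. The listed genes, pathway and marker lists were chosen with earlier results of these data known. 1 listed symbol was read under a newer name. Replicate numbers do not pair the mice in the labels, and deviations of same-numbered arrays correlated at -0.10, 0.03 and -0.05. Alternatives were other scalings, gene summaries, priors and weights, a replicate block, week as a covariate and left-out arrays. Promoter windows are from RefSeq. Figures were drawn with matplotlib 3.10.9.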

Additional observations from a re-analysis of the deposited data

How the results depend on the processing

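None of the 8 measured genes passed under any of the 18 alternatives, and the lowest adjusted p was 0.645, for Ldha when genes under the median level were left out. The count of all genes that passed was 0, against 1, with the replicate block, with week as a covariate, without both control replicate 1 and ErbB4-/- replicate 3, with every row tested, at a threshold of 0.01 and without any 1 array (0 to 0). With week as a covariate Pklr turned to 0.27, Pkm to 0.17, Pfkfb3 to -0.63 and Gys2 to -0.022. Pfkfb3 was also -0.11 with array weights and -0.26 without both arrays. When each array was left out, differences ranged from -0.011 to 0.018 for Hk2, -0.24 to 0.27 for Pfkfb3 and -0.12 to 0.61 for Gys2. The Pklr and Pkm pair ranged from -0.065 to 0.33 there and was -0.10 without both arrays. Slc2a1, Slc2a2, Ldha and the carrier pair kept their direction in every alternative run, but with week as a covariate Slc2a2 was 1.01, Slc2a1 -0.43 and the carrier pair 1.44. The fit with week does not separate age from genotype, since all ErbB4-/- entries lie above all control entries. With the replicate block the pair shifts stayed 0.45 and 0.11, and no call among the 8 genes changed. A pseudocount was not needed for log2 values.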

Other observations

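Regulators of glycolytic genes were mostly lower on average in ErbB4-/- liver, 11 of 13 measured, where 10057 of 22180 genes were lower, with 0 past the threshold (limma, adjusted p between 0.760 and 1) and 2, both lower, at an unadjusted p under 0.05 (2.94% of all genes). The median difference of the list was -0.12, and the 11 include differences close to 0, such as -0.0007 for Foxa2 and -0.02 for Arnt. Epas1, which encodes the hypoxia factor HIF-2 alpha, measured 9.33, 9.43 and 9.36 in ErbB4-/- liver, against 9.84, 9.61 and 9.62 in control liver, a difference of -0.31 without overlap. Hnf4a, a hepatocyte factor that acts on Pklr, measured 10.68, 10.74 and 10.67 in ErbB4-/- liver, against 11.02, 10.79 and 11.17 in control liver, a difference of -0.30 without overlap. Hnrnpa2b1, a splicing factor of Pkm, differed by -0.11. Groups did not overlap for 3 of the 13 regulators, all lower, beside 3.81% of all genes lower without overlap. With week as a covariate, a fit that does not separate age from genotype, the direction of the list was even, 6 higher and 7 lower. Of 14 HIF target genes 0 passed, 8 were lower and 6 higher on average, and Kdm3a, a histone demethylase, and Ero1a, an oxidase of the endoplasmic reticulum, differed by -0.21 and -0.24.

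Of 4 regulatory subunits in the glycogen list that target protein phosphatase to glycogen and were measured, 2, picked after their values were seen, were lowest on the ErbB4-/- array where Gys2 was highest. The other 2 were not lowest there, Ppp1r3d with 4.61, 4.31 and 4.41 and Ppp1r3g with 4.84, 5.07 and 4.94 in ErbB4-/- replicates 1 to 3. Ppp1r3c measured 9.83, 9.44 and 8.20 in ErbB4-/- replicates 1 to 3, against 8.98, 9.12 and 8.75 in control replicates 1 to 3. Ppp1r3b measured 9.14, 9.18 and 8.22 in ErbB4-/- liver, against 8.66, 9.58 and 9.40 in control liver, lowest on ErbB4-/- replicate 3 and on control replicate 1 within each group. Gys2 was highest on the same 2 arrays. Pdk4, a kinase of pyruvate dehydrogenase that rises in fasting, was also lowest there, at 6.37 on ErbB4-/- replicate 3 and 6.62 on control replicate 1, against 7.43 and 7.64 on the other ErbB4-/- arrays and 7.10 and 7.15 on the other controls.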
